A study of Mus musculus with 20 samples.

Results

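Long intergenic non-coding RNA (lincRNA) loci can give rise to several transcripts, and a small set of loci in the deposited lincRNA catalogue held many of them. A locus was taken here when it lay on chromosome 1 to 19, listed at least 5 different transcripts and spanned at most 100000 bp. This gave 553 of the 29286 loci in the file. They made up 2.00% of the 27637 autosomal loci and held 5391 (13.9%) of the 38665 autosomal transcripts. The rule used the number of transcripts and the span, and the way in which the transcripts of a locus differ from each other was not part of it. The question for these loci was whether their transcripts start in different first exons, end in different last exons, leave out an exon, move a splice site, keep an intron or are not spliced at all. At the edge of the rule, 183 loci had exactly 5 transcripts and 391 loci of the same span limit had exactly 4. The longest locus inside was NONMMUG019541 with 99856 bp, and the shortest one left out was NONMMUG000504 with 104055 bp. The span limit left out 50 autosomal loci, and 33 loci with at least 5 transcripts were on other sequences.

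The study sequenced RNA that came down with EdU-labelled DNA in wild-type mouse embryonic stem cells (ESC) and in NIH3T3 cells, a mouse fibroblast line, as 20 libraries in 10 groups of 2. In each cell type the groups were no_click (DMSO in place of 10 µM biotin azide), click_normal, click_HU, click_chase and click_protease, and the last 3 carried the hydroxyurea label (4 mM for 4 h). Cells of each group received EdU for 10 min and were fixed with 1% formaldehyde, and NIH3T3 cells had before that spent 15 h in 2 mM thymidine and 2.5 h in fresh medium. The labels do not describe the chase or protease step or say whether the 2 libraries of a group were separate cultures. The catalogue lists exon positions on the mouse build mm9 and has no value per library, so RNA levels, read depth and differences between these groups were not analysed here. It is a full list and not a sample of cells or animals, so each count below is a description without a test or an error.

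As background, the spliceosome joins exons at a donor site, where an intron usually begins with GT, and an acceptor site, where it usually ends with AG. One gene yields different RNAs when transcription starts at another promoter, when the RNA is cleaved at another polyadenylation site, or when the spliceosome passes over an exon, uses a neighbouring site or leaves an intron in place. Many lincRNAs are spliced in several ways, and for some, such as the host genes of small nucleolar RNAs, the introns and not the exons carry a known product.

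The smallest moves of a splice site can be read in the letters of the RNA. No genome of build mm9 was at hand, so the sequences come from the GENCODE M21 transcripts of genes whose runs of intron, exon and intron length matched a locus, with GRCm38 coordinates. The first set shows 4 of the smallest acceptor shifts for which both introns have their length in the matched GENCODE gene, with ties taken by locus identifier: 2 of 2 at 2 nt and 2 of 7 at 3 nt. Capitals mark the bases between the 2 acceptor sites, which belong to the exon in the longer form and to the intron in the shorter one. On each side 20 nt are printed, or as many as the exon holds. In 1300002E11Rik (locus NONMMUG016035, plus strand) the intron is chr16:21801357-21802952 in the longer form and chr16:21801357-21802954 in the shorter. In Vmn2r-ps54 (NONMMUG037855, plus strand) it is chr7:41668089-41686291 or chr7:41668089-41686293. In Gm15850 (NONMMUG001865, minus strand) it is chr1:136127787-136129392 or chr1:136127784-136129392, and in 1700031P21Rik (NONMMUG008986, minus strand) it is chr12:52602059-52602179 or chr12:52602056-52602179.
1300002E11Rik, longer form: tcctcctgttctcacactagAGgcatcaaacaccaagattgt
1300002E11Rik, shorter form: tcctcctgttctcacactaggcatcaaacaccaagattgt
Vmn2r-ps54, longer form: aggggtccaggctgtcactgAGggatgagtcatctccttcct
Vmn2r-ps54, shorter form: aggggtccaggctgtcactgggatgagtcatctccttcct
Gm15850, longer form: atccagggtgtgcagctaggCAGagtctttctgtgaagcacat
Gm15850, shorter form: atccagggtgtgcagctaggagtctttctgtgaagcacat
1700031P21Rik, longer form: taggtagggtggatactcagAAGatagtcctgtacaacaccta
1700031P21Rik, shorter form: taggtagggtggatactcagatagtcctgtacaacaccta

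The second set shows 4 of the smallest donor shifts chosen in the same way (1 of 2 at 9 nt, where Rian ties), and here the capitals stand at the end of the upstream exon. In E230029C05Rik (NONMMUG038657, plus strand) the intron is chr7:90038075-90040729 in the longer form and chr7:90038071-90040729 in the shorter. In Mirg (NONMMUG009975, plus strand), a microRNA host gene of the imprinted Dlk1-Dio3 region, it is chr12:109731356-109731716 or chr12:109731351-109731716. In the small nucleolar RNA host gene Snhg17 (NONMMUG025318, minus strand) it is chr2:158359433-158360458 or chr2:158359433-158360463, and in 1700020G17Rik (NONMMUG004674, minus strand) it is chr10:110836304-110893019 or chr10:110836304-110893028.
E230029C05Rik, longer form: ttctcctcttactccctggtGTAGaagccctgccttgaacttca
E230029C05Rik, shorter form: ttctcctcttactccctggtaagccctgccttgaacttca
Mirg, longer form: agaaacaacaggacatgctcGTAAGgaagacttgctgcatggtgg
Mirg, shorter form: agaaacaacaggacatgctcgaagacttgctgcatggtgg
Snhg17, longer form: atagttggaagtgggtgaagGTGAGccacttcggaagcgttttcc
Snhg17, shorter form: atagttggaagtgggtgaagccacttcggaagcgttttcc
1700020G17Rik, longer form: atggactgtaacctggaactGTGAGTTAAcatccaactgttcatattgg
1700020G17Rik, shorter form: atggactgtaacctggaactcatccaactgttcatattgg

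The third set shows a skipped exon in each of 3 neighbouring imprinted RNAs of chromosome 12, chosen after their values were seen. The capitals are the exon. In Meg3, a maternally expressed RNA, the exon of 81 nt lies at chr12:109549291-109549371. In Rian, which hosts small nucleolar RNAs, it has 15 nt and lies at chr12:109652701-109652715. In Mirg it has 54 nt and lies at chr12:109748956-109749009.
Meg3, with the exon: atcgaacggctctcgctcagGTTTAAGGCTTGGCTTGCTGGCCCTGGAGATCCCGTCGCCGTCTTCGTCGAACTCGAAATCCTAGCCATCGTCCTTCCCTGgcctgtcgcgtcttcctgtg
Meg3, without the exon: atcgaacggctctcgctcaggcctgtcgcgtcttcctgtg
Rian, with the exon: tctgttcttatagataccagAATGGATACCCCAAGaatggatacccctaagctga
Rian, without the exon: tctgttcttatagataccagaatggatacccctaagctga
Mirg, with the exon: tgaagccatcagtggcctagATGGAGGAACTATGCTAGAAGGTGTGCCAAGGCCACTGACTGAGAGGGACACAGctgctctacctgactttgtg
Mirg, without the exon: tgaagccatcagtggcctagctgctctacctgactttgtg

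The small exon of Rian opens with the same 12 letters as the exon that follows it, the longest such stretch among the skipped exons that were read. In the catalogue, an internal exon of its length occurred in 2 transcripts of Rian and an intron of the skipping length in 6. For the exon of Meg3 these counts were 2 and 5, and for the exon of Mirg 1 and 6.

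The 553 loci had a median of 6 transcripts (quartiles 5 and 8, highest 209), a median span of 15692 bp (quartiles 7127 and 32638) and a median of 7 different introns (quartiles 6 and 10, highest 50). The transcripts were short models, with a median over loci of 1096.5 nt and 3 exons. Of the 5391 transcripts 5130 were spliced and 261 had 1 exon. On the plus strand lay 274 loci and on the minus strand 279. Chromosome 7 held the most of them, 44, followed by chromosome 10 with 41. As a share of all loci of a chromosome they ranged from 1.14% on chromosome 6 to 3.14% on chromosome 17.

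No spliced transcript differed from another of its locus in its ends alone. Each of the 5130 spliced transcripts had an intron chain, the ordered set of its introns, that no other transcript of its locus had. The same held for all 23174 spliced transcripts of the file, so this is a property of the catalogue and not of these loci. In 1442 transcripts (26.7% of 5391) the chain was an unbroken part of a longer chain of the same locus, so that these transcripts add no intron to the longer one. The other 3688 (68.4%) had at least 1 intron, or 1 order of introns, that set them apart from each longer model.

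Counted by locus, a shifted splice site was the most frequent difference. It occurred in 379 of 553 loci (68.5%), a skipped exon in 285 (51.5%), a retained intron in 275 (49.7%), alternative first exons in 223 (40.3%), alternative last exons in 211 (38.2%) and an unspliced model in 124 (22.4%). With 2 transcripts a locus offers 1 pair in which a difference can be seen, so these shares were set beside those of loci with fewer transcripts. Among the 2642 autosomal loci of the same span limit with 2 transcripts, the most frequent entry was an unspliced model, in 38.9%, and a shifted splice site occurred in 14.1% and a skipped exon in 4.01%. With 3 transcripts (852 loci) the skipped exon reached 11.6% and with 4 (391 loci) 27.9%. Among the members it stood at 44.4% in the 439 loci with 5 to 9 transcripts and at 78.9% in the 114 loci with 10 or more. Alternative first exons did not climb in this way among the members, with 39.9% and 42.1% in the same 2 classes, and alternative last exons gave 38.0% and 38.6%. A first or last exon was counted only where it overlapped no other kind of exon of the locus. Further transcripts can therefore take such exons out of the count as well as add to it, which limits this contrast.

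Transcripts were therefore also taken 2 at a time, so that each comparison holds 1 pair whatever the size of the locus. The members held 92162 such pairs, and the share of pairs with a difference was averaged over loci. Pairs from member loci had different own first exons in 27.9% of cases, against 10.7% in loci with 2 transcripts. For last exons the values were 26.2% and 9.46%. A skipped exon separated 9.56% of pairs against 4.01%, and a shifted splice site 16.4% against 14.1%. A retained intron separated 13.6% against 12.1%, and an unspliced model 10.4% against 38.9%. Counted by pair, and with this looser rule for the ends, the order within the members was another one, with first and last exons above shifted sites. The shares for the ends of the transcripts differed more between these classes than those for shifted sites and retained introns, while the unspliced models went the other way. Differences in first exons, last exons, skipped exons and shifted sites need 2 spliced transcripts, yet pairs with an unspliced model were kept in all shares. Such pairs were more frequent in loci with 2 transcripts, which lowers their shares. The gap for shifted sites therefore does not show more shifting among spliced transcripts of the members. These differences between classes were not tested.

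**Figure D1:**
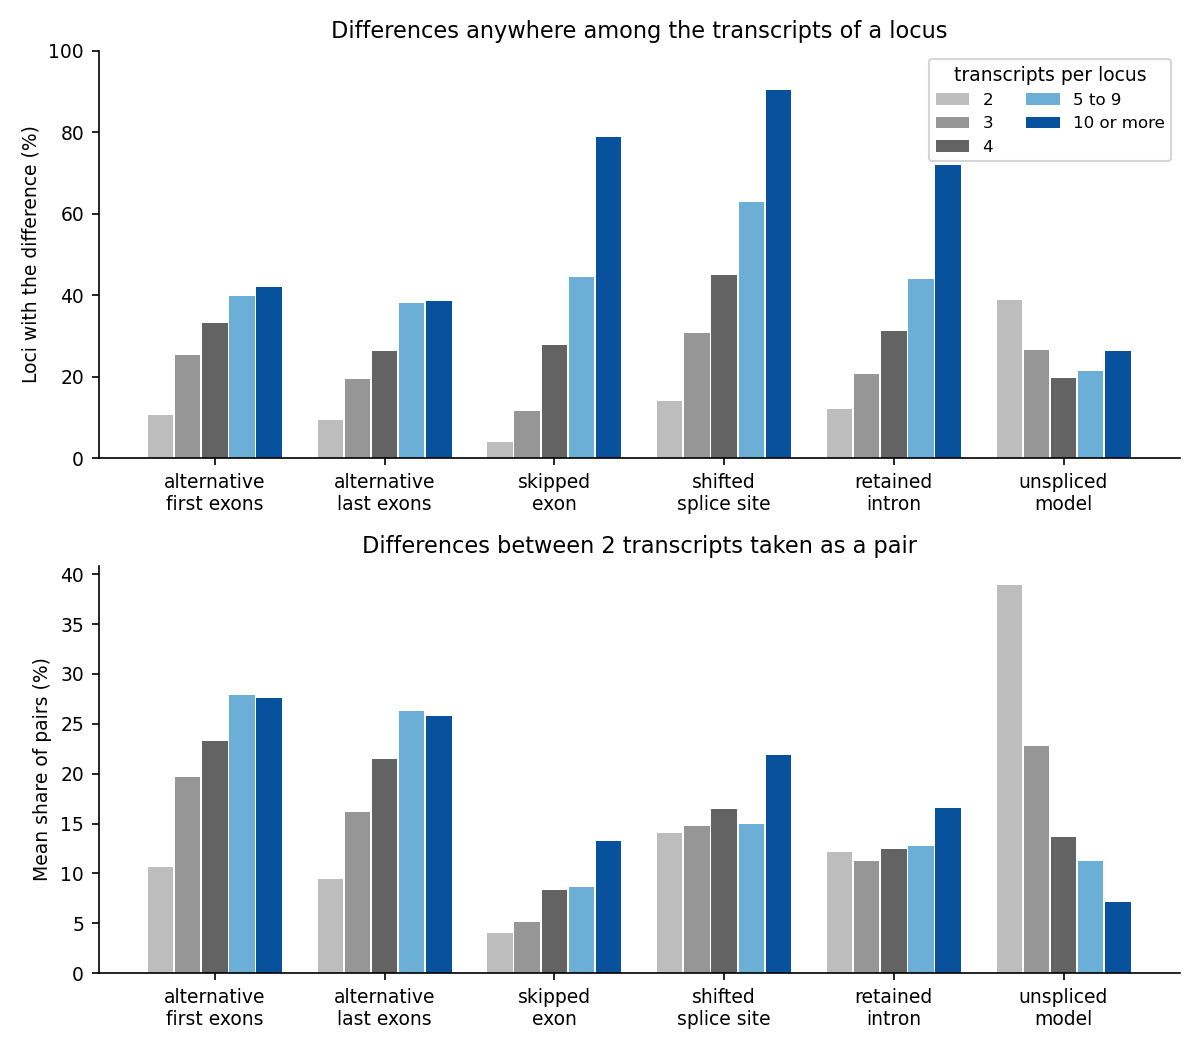
Share of loci that show each kind of difference (upper panel, %) and mean share of transcript pairs per locus that show it (lower panel, %), for autosomal loci of at most 100000 bp with 2, 3, 4, 5 to 9 and 10 or more transcripts. Counted per locus, shifted sites reach 90.4% and skipped exons 78.9% in the loci with 10 or more transcripts, and counted per pair they stand at 21.9% and 13.2%. Pairs with an unspliced model are kept in the lower panel, and first and last exons are judged there against the other transcript of the pair alone.

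Alternative first exons mark different starts of transcription in the models. First exons of spliced transcripts were grouped where they overlapped, and a group counted as its own when it touched no later exon of the locus. In 265 loci there was 1 such group, in 164 there were 2, in 40 there were 3 and in 19 there were 4 to 6. The gap between neighbouring own first exons had a median of 4325 bp (quartiles 769 and 12674, 309 gaps), and 88 gaps (28.5%) were shorter than 1000 bp. NONMMUG033636 (mm9 chr5:120789517-120797481, minus strand) and NONMMUG001886 had the most, 6 each. NONMMUG033636 is simple in structure. Its 6 transcripts have 2 exons each, all 6 join the same acceptor site, and their first exons measure 69, 91, 113, 191, 322 and 386 nt. The exon of 113 nt begins directly where that of 322 nt ends, and whether these 2 are separate starts was not tested. NONMMUG001886, matched to Gm19705 (chr1:138566251-138587379, plus strand), reached the number with 103 transcripts and also had 4 own last exons. NONMMUG010844 (chr13:44567361-44583131, minus strand) had 5 own first exons among 6 transcripts of 2 exons and was 1 of 4 loci with that number.

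Alternative last exons mark different 3′ ends. In 258 loci there was 1 own last exon, in 140 there were 2, in 55 there were 3 and in 16 there were 4 or more. They lay farther apart than the first exons, with a median gap of 7467 bp (quartiles 3306.75 and 16131.8, 302 gaps), and 28 gaps (9.27%) were shorter than 1000 bp. NONMMUG041944, matched to 4930567H12Rik (chr8:128108295-128160793, plus strand), had the most, with 7 own last exons among 9 transcripts. Most of its transcripts leave from a common start region and end at points from 3857 to 41211 bp along the 52499 bp of the locus. The others start at 40943 and 40998 bp and end at 52499 and 45000 bp. NONMMUG003243 (chr10:24748086-24817976, minus strand) had 5 own last exons among 9 transcripts. Both ends varied in 96 loci, the first exons alone in 127, the last exons alone in 115 and neither in 215. A first or last exon that overlaps an internal exon of another transcript is not counted here, since it cannot be told from a model that is cut short. With those included, 447 loci (80.8%) had more than 1 first-exon group and 442 (79.9%) more than 1 last-exon group.

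**Figure D2:**
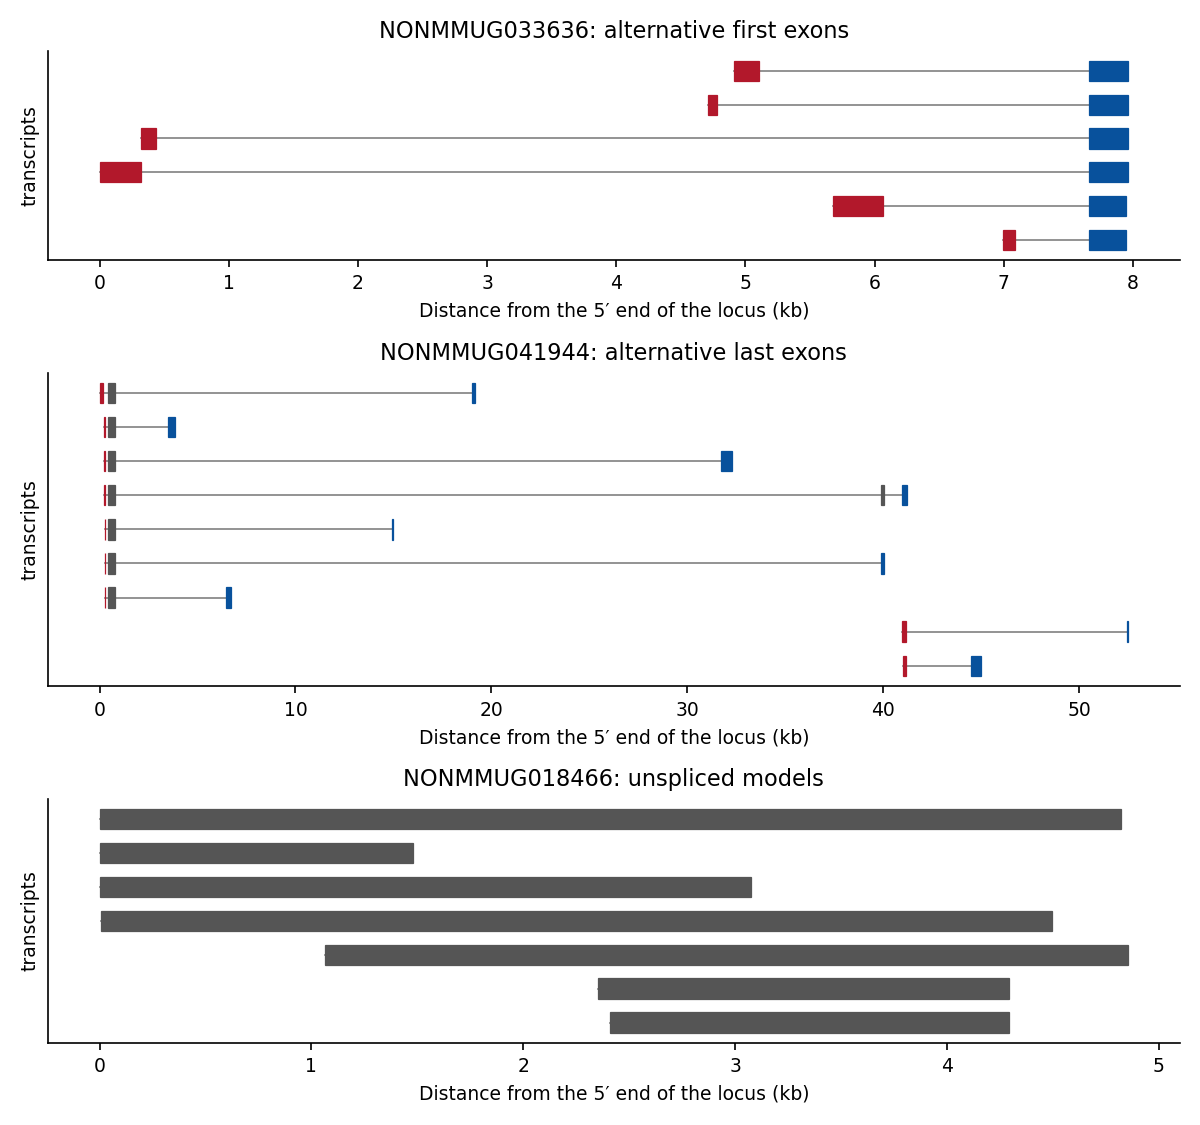
Exon models of 3 loci, one line per transcript, with the distance from the 5′ end of the locus in kb on the horizontal axis. Red boxes are first exons, blue boxes last exons, grey boxes internal exons or unspliced models, and thin lines introns: NONMMUG033636 has 6 first exons before 1 last exon, NONMMUG041944 has 7 own last exons, and NONMMUG018466 has 7 models without an intron.

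Skipped exons were counted where 1 intron of another transcript joins the sites on either side. There were 622 of them, 25.8% of the 2408 different internal exons. Exons that differ at either end were counted apart, so overlapping versions of 1 exon can each add to these numbers. Of these 496 (79.7%) were passed over alone by some intron and 126 only together with a neighbour. One exon was skipped in 137 loci, 2 in 70 and 3 or more in 78. Their median length was 119 nt (quartiles 82 and 181.75), against 131 nt (quartiles 88 and 209) for the other 1786 internal exons. The shortest measured 1 nt among the skipped and 2 nt among the other internal exons, and whether exons this short are real was not tested. In a coding RNA, skipping an exon keeps the reading frame when its length is a multiple of 3. Here the share of such lengths was 33.9% in skipped and 33.4% in other internal exons, so it did not set the skipped exons apart. NONMMUG030424 (chr4:118219498-118221797, plus strand) had the most, 18, within 2300 bp. Its transcripts had at most 7 exons each, and how many of the 18 overlap one another was not counted. Rian (NONMMUG009968, chr12:110842150-110899926) had 9, among them the exon of 15 nt shown above, and Gm36827 (NONMMUG003666, chr10:56652299-56702037, minus strand) had 9 among 36 transcripts, a number that 3 loci shared. Miat, a nuclear lincRNA of neurons and heart, had 7.

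A shifted site was counted where 2 introns share a site at one end and differ at the other within overlapping exons. Acceptors moved in 253 loci (45.8%) and donors in 245 (44.3%), both in 119, acceptors alone in 134 and donors alone in 126. The sizes differed. Among 471 pairs of acceptor sites the median distance was 50 nt (quartiles 6 and 181), and among 420 pairs of donor sites it was 93 nt (quartiles 23 and 296.5). Moves of 1 to 5 nt made up 116 acceptor pairs (24.6%) and 56 donor pairs (13.3%).

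At the acceptor, 3 nt was the most frequent single distance, with 44 pairs (9.34%) in 42 loci. The neighbouring distances of 1, 2, 4, 5 and 6 nt had 13, 15, 30, 14 and 6 pairs. At the donor, 3 nt had 4 pairs and the most frequent distance was 4 nt, with 15 pairs in 15 loci. This was little above 1, 2 and 5 nt, with 13, 12 and 12 pairs. The loci with 2 to 4 transcripts had 73 of 515 acceptor pairs (14.2%) at 3 nt and 29 of 471 donor pairs (6.16%) at 4 nt. Their donor distances of 1, 2 and 5 nt had 20, 13 and 9 pairs. The most frequent distances were thus the same in both classes, but for donors of the members 4 nt hardly stood out. Multiples of 3 made up 31.2% of all acceptor pairs and 28.8% of all donor pairs, and among distances over 12 nt 26.7% and 30.7%. When the distance was taken between any sites of overlapping exons, without asking for a common site at the other end, the share of 3 nt among acceptors was 3.22% (51 of 1582 pairs).

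**Figure D3:**
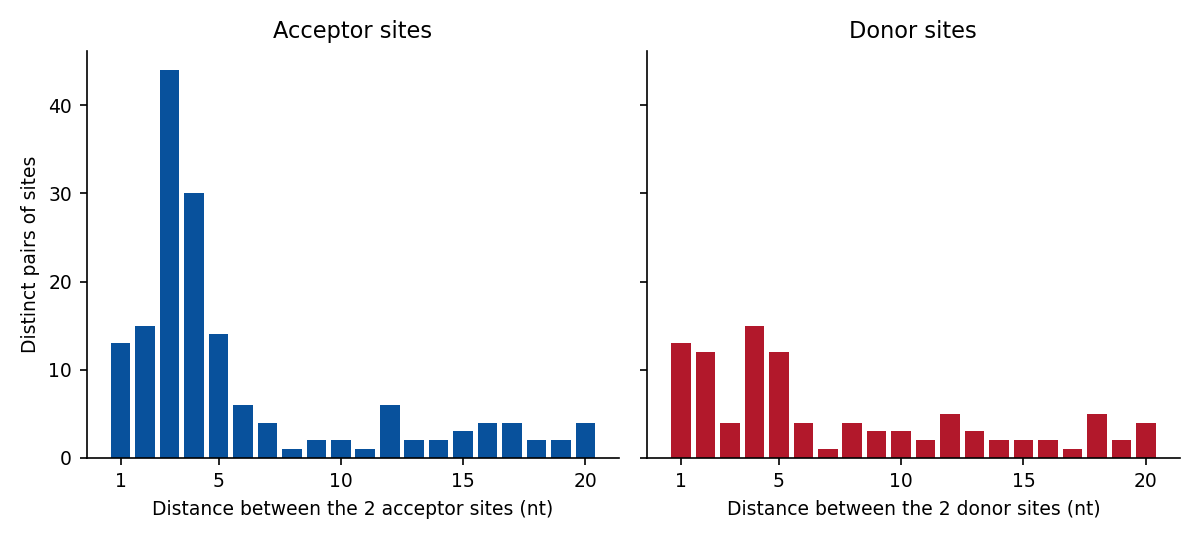
Number of distinct pairs of acceptor sites (left) and donor sites (right) at each distance from 1 to 20 nt in the loci with 5 or more transcripts. The acceptor panel peaks at 3 nt with 44 pairs. The donor panel is highest at 4 nt with 15 pairs, little above 1 nt with 13 pairs.

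The letters between the sites can be set beside these distances. In a shifted acceptor the longer intron ends with the bases in question, and in a shifted donor it begins with them. Where GENCODE M21 held both introns, the extra bases ended with AG in 81 of 81 acceptor pairs and began with GT in 64 of 65 donor pairs, the exception being a donor shift in BC024386. These letters come with the annotation, since GENCODE lists the longer intron too. Further pairs could be read where GENCODE held the shorter intron and not the longer one. AG then stood at the end of the bases that the catalogue moves into the intron in 74 of 75 acceptor pairs (98.7%), which included 9 of 9 at 3 nt and 9 of 9 at 4 nt. GT stood at their start in 42 of 47 donor pairs (89.4%). Both motifs were searched on the transcribed strand at that 1 place, as the letters AG and GT. Across the 2303 introns of the matched genes, windows of the same lengths held AG there in 8.20% and GT in 5.03%. The sources used here do not say whether the catalogue placed its introns by these letters. The shares therefore describe the models, and whether the shifts are real was not tested. No shift of 1 nt could be read in this way, so its letters are not known here.

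The sequences printed above show what these counts contain. In Gm15850 the extra triplet is CAG and in 1700031P21Rik it is AAG, and both end in AG. In Mirg and Snhg17 the extra bases are GTAAG and GTGAG, 2 usual openings of an intron. A close relation of these moves is an intron of unchanged length whose donor and acceptor both lie a few bases along. There were 22 such pairs of introns at distances of 1 to 10 nt, in 19 loci. For the smallest moves the 2 annotations overlapped little. Of 14 acceptor shifts of 1 to 2 nt in matched loci 2 were also in GENCODE, and of 19 donor shifts of that size 0 were.

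Shifted sites were densest in NONMMUG030424, with 8 acceptor and 11 donor pairs. Gm6145 (NONMMUG013739, chr14:106020137-106043063, minus strand) had 11 acceptor and 5 donor pairs, and AI480526 (NONMMUG033747, chr5:123583735-123592064, minus strand) had 7 and 8. Six3os1, an RNA opposite the eye and forebrain regulator Six3, had 11 acceptor pairs and no donor pair. NONMMUG036494 had 1 acceptor and 4 donor pairs within 1012 bp, in 6 transcripts of 2 exons.

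A retained intron was an intron of one transcript that lay wholly inside an exon of another. Of the 4640 introns of the members 848 were retained in this sense. They were short. Their median length was 283 nt, and the 3792 others had a median of 2601 nt. The share fell with length, from 168 of 233 introns under 100 nt (72.1%) through 383 of 934 from 100 to under 500 nt (41.0%) and 232 of 1272 from 500 to under 2000 nt (18.2%) to 65 of 2201 of 2000 nt or more (2.95%). Only an exon longer than the intron can cover it, so length limits this count by construction. Gaps under 30 nt numbered 58 (1.25% of introns), and 49 of them were covered by an exon. Their place in the counts was small, since closing them left 266 loci (48.1%) with a retained intron.

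Unspliced models were few in number and spread over 124 loci. Of the 261 models 69 lay inside an exon of a spliced transcript, 69 ran over a whole intron and 123 did neither. The 123 include by construction each model of a locus without any spliced transcript. They were longer than the spliced transcripts, with a median of 1859 nt against 1097.5 nt. One such model was present in 74 loci, and 50 loci had 2 or more. In 8 loci (1.45%) no transcript was spliced, compared with 26.1% of loci with 2 transcripts. The one with the most models, NONMMUG018466 (chr17:47664910-47669765, plus strand), had 7 between 1482 and 4823 nt long, which overlap along 4856 bp and differ in where they begin and end. Meg3 had 11 unspliced among 27 transcripts, the most of any member. NONMMUG034874 (chr6:30752812-30758830, plus strand) had 8 of 10, and Neat1, the architectural RNA of paraspeckles, 6 of 11.

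Longer loci more often had alternative ends and skipped exons, while the share with shifted sites varied little with span. The span runs from the lowest exon start to the highest exon end, so separate first or last exons lengthen it by construction. How much of the rise for the ends comes from this was not tested. Alternative first exons were present in 20.9% of the 191 loci under 10 kb, in 44.5% of the 211 loci of 10 to 30 kb and in 58.9% of the 151 loci of 30 to 100 kb. For alternative last exons the shares were 15.7%, 41.7% and 61.6%, and for skipped exons 38.2%, 54.5% and 64.2%. Shifted sites stayed at 69.1%, 68.7% and 67.5%. Retained introns ran the other way, with 58.6%, 50.2% and 37.7%. The median number of transcripts was 6, 6 and 7 in these 3 classes.

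**Figure D4:**
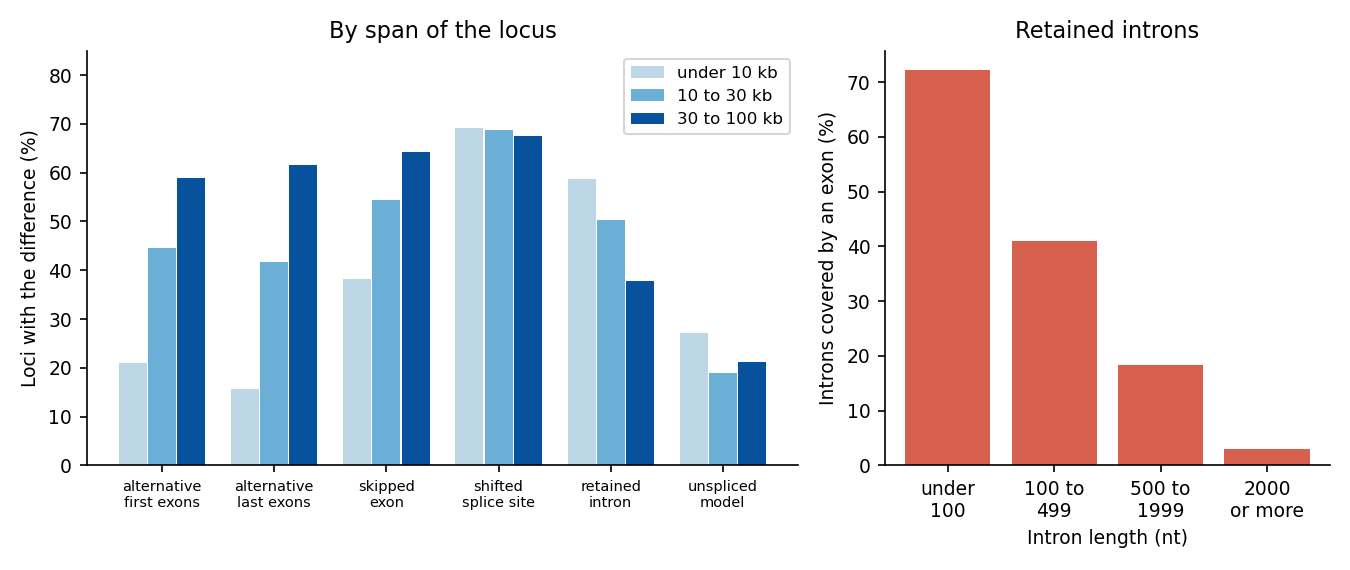
Left, share of the 553 loci (%) with each kind of difference in 3 classes of span. Right, share of introns (%) wholly covered by an exon of another transcript of the locus, in 4 classes of intron length. First and last exons rise with span to 58.9% and 61.6% while shifted sites stay between 67.5% and 69.1%, and retention drops from 72.1% to 2.95% with intron length. Separate first and last exons themselves add to the span.

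Most loci combined several of these differences. Counting first exons, last exons, skipped exons, shifted sites and unspliced models, 108 loci had 1 kind, 220 had 2, 151 had 3, 54 had 4 and 1 had all 5. The most frequent combination was a skipped exon with a shifted site, in 64 loci (11.6%), followed by a shifted site alone in 54. An unspliced model was the only kind in 24 loci. In 19 loci none of the 5 was found. Of those, 18 had a retained intron, among them the small nucleolar RNA host genes Snhg12 and Snhg15, and NONMMUG005675 (chr11:31604395-31613636, minus strand) had none either. Its 5 transcripts have 4 groups of first exons, of which 1 overlaps no later exon, and so no alternative first exon was counted.

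A few loci held a large part of the transcripts. The 10 loci with 50 or more transcripts held 1095 of them (20.3%) but had a median of 24 introns. NONMMUG004914, matched to Gm36041 (chr10:121823907-121880004, plus strand), listed 209 transcripts from 24 introns. To see how such numbers arise, the possible paths through each locus were counted. A path runs from an exon used as a first to an exon used as a last along the listed introns. Exons that differ at either end counted as different exons, so each further start or end of a transcript can add paths. NONMMUG011879 (chr13:108282794-108293704, minus strand) had 110 such paths from 13 introns and 22 different exons, and all 110 were listed. NONMMUG042118 (chr9:13217548-13218581, plus strand) listed 64 of 64, and NONMMUG018873, matched to CT025731.4 (chr17:74404760-74429620, minus strand), 110 of 112. In these 3 loci nearly each combination of the listed parts is present. NONMMUG004914 listed 209 of 331 paths and NONMMUG030424 185 of 382.

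Other loci listed few of their paths, and their transcripts had more different starts and ends than those of NONMMUG011879. That locus had 4 starts and 4 ends, against 16 and 10 in Gm6145, 19 and 15 in Gas5 and 20 and 20 in Rian. How much of the difference in paths comes from the ends was not tested. Gm6145 listed 76 of 1011 paths. Gas5, a host gene of small nucleolar RNAs, listed 24 of 2763, and Rian had 20 spliced transcripts for 3576 paths (0.559%). By class, the median share of paths listed was 70.7% in 426 of the 439 loci with 5 to 9 transcripts. It was 41.1% in 104 loci with 10 to 49 and 48.8% in the 10 richest loci. All paths were present in 157, 23 and 2 loci of these classes. In the 10 richest loci both introns of a shifted pair were used by equal numbers of transcripts in 32 of 97 pairs (33.0%). The share was 32.4% in loci with 10 to 49 transcripts and 58.7% in those with 5 to 9, so equal use was not particular to the richest loci. Where each intron was used by at least 10 transcripts, 20 of 40 pairs were equal in the richest loci and 3 of 8 in loci with 10 to 49. In 5 of these 10 loci (NONMMUG001886, NONMMUG004914, NONMMUG011879, NONMMUG026480 and NONMMUG030424) the transcript identifiers run without a gap. They also do so in the smaller loci NONMMUG033636, NONMMUG041944 and NONMMUG018466, so this is not particular to the richest loci. The share over all loci was not counted. The sources used here do not say how these models were made.

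**Figure D5:**
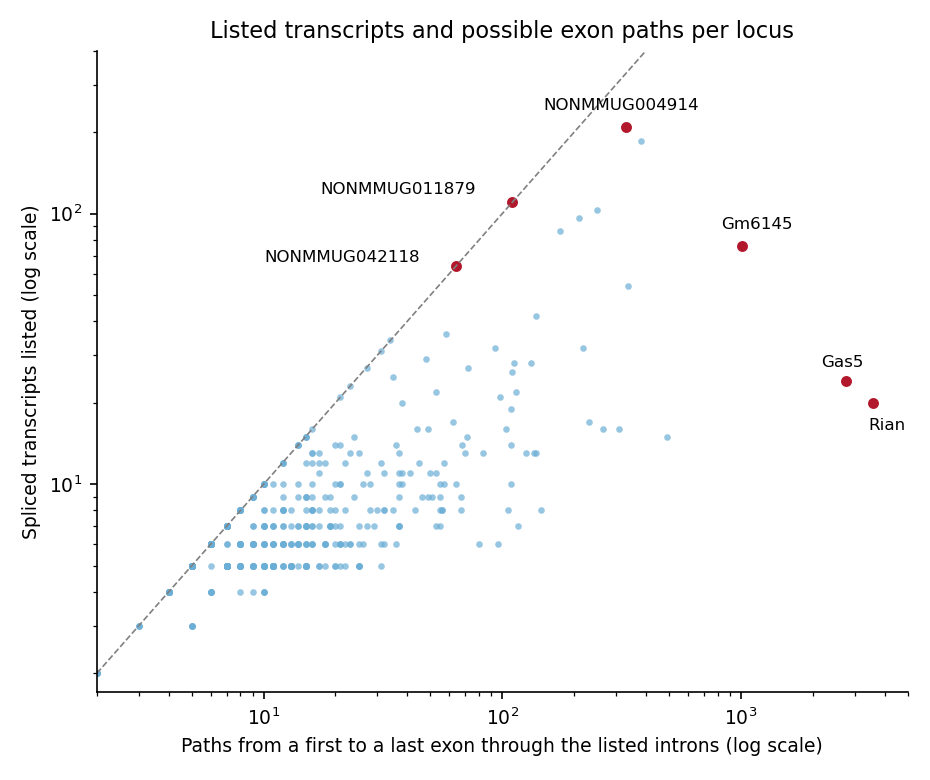
Number of spliced transcripts listed against the number of possible paths through the listed introns. Each point is a locus with at least 2 spliced transcripts, and both axes are on a log scale. Exons that differ at either end count as different exons, so varied transcript ends add paths. On the dashed line each path is listed, as in NONMMUG011879 with 110 of 110, and Gas5 (24 of 2763) and Rian (20 of 3576) lie far to the right of it.

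NONMMUG042118 shared more than its span with another member. NONMMUG042119 lies on the other strand at chr9:13217548-13218528 with 12 transcripts, and 7 introns of the 2 loci have the same positions on opposite strands. An intron that reads GT to AG on one strand does not do so on the other, so the usual letters can fit 1 of the 2 sets at each of these introns, and which one was not tested. Another 4 members shared 1 intron position with a locus on the other strand. Overlap of spans alone was common, with 157 members (28.4%) overlapping a locus on the opposite strand.

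Names were given to loci by matching with GENCODE M21. Of the 520 members with a transcript of at least 3 exons, 324 (62.3%) matched 1 gene on the same chromosome and strand, and with the strand of the reference swapped 1 did. The matched genes were lincRNA in 199 cases (61.4%), processed transcripts in 70 (21.6%), antisense RNAs in 28 (8.64%) and protein-coding genes in 8 (2.47%), among them Aldh1a1, an enzyme of retinoic acid synthesis, and Slc16a7, a monocarboxylate transporter. The label of a lincRNA locus is therefore not borne out for a part of the members. The catalogue listed a median of 6 transcripts for the matched loci and GENCODE 3. The catalogue had more in 292 loci, as many in 12 and fewer in 20. Of the differences between transcripts, 170 of 438 skipped exons (38.8%), 81 of 298 acceptor shifts (27.2%) and 65 of 251 donor shifts (25.9%) were present in GENCODE with the same lengths.

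Among well-known lincRNAs, 20 were matched to a member, and they differed in what separates their transcripts. Meg3 (NONMMUG009962, 27 transcripts) had 16 spliced and 11 unspliced models, 3 skipped exons, 5 shifted sites and 7 retained introns. Rian (24 transcripts) had 9 skipped exons, 14 retained introns and a transcript of 26 exons. Mirg (14 transcripts) had 3 skipped exons, 3 acceptor and 2 donor shifts and 8 retained introns. These 3 RNAs of one imprinted cluster each had 1 own first exon, so no alternative first exon was counted in any of them. With groups that overlap a later exon included, Meg3 had 7 first-exon groups, Rian 6 and Mirg 7. H19 (NONMMUG039673, 6 transcripts), another imprinted RNA, had 5 spliced models and 1 unspliced model, no skipped exon and no shifted site. Of its 6 introns 6 were retained, 3 of them in an exon of a spliced transcript.

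Among Gas5 and the matched Snhg genes, which are named as hosts of small nucleolar RNAs, the spans ran from 1877 bp in Snhg5 to 7843 bp in Snhg17, except Snhg14 with 38655 bp. Gas5 (NONMMUG002215, 24 transcripts) had 6 skipped exons, 13 retained introns, 1 acceptor and 2 donor shifts and 2 own first exons. Snhg17 (10 transcripts) had 7 retained introns and 5 shifted sites, 1 of them the donor pair printed above. Snhg6 (8 transcripts) had 4 shifted sites and 3 retained introns. In Snhg12 (7 transcripts) and Snhg15 (6 transcripts) there was no skipped exon and no shifted site, with 3 and 1 retained introns. Snhg3 (6 transcripts) had no retained intron and 2 own first exons.

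Several of the matched RNAs are known from development. Six3os1 (NONMMUG019079, 16 transcripts) had 4 skipped exons, 11 acceptor shifts and 3 own last exons. Rmst (NONMMUG004396, 16 transcripts), an RNA of neural progenitors, spanned 94142 bp and had 6 skipped exons, 6 acceptor shifts, no donor shift and 10 retained introns. Crnde (NONMMUG041273, 7 transcripts) had 5 skipped exons and Miat (NONMMUG033401, 17 transcripts) 7 skipped exons and 5 acceptor shifts. Bvht (NONMMUG020081, 8 transcripts), a cardiac lincRNA, had 3 own first exons and no skipped exon. In Neat1 (NONMMUG020673, 11 transcripts) neither a skipped exon nor a shifted site was listed, and its transcripts ranged from 572 to 20771 nt.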

How the data were processed

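The 20 RNA-seq libraries were put in groups by their titles. The file deposited for the series is an exon table with start and end positions in bp and no value in its score field (0 lines with one), so depth is unknown and no library enters a comparison. The submitters' processing notes name mm9, TopHat2 2.0.8 and Cufflinks 2.1.1, without a role for each. The sources used here do not say how the models were chosen.

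The rule was applied to the table as deposited, and transcripts of a locus were compared exon by exon along the strand. Own first or last exons, skipped exons, shifted sites and retained introns were defined as stated beside each count. Loci were matched to GENCODE M21 on GRCm38 by exact runs of intron, exon and intron length on the same chromosome and strand, 2 ties were left unassigned, and no coordinate was converted. The procedure was tested on simulated loci. Named loci are the 3 highest for each kind of difference, for transcripts and for intron chains, the 3 smallest in span, and the listed known lncRNAs that matched. Any other locus is named because of its values. The loci and lists were chosen with earlier results of these data known. Sequences are from GENCODE transcripts, none from chromosome 18. Alternatives changed the definitions, the limits on transcripts and span, short gaps and the set of loci. Scripts ran in Python 3.11.15 with scipy 1.17.1, pandas 2.3.3, numpy 2.4.6 and matplotlib 3.10.9.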

Additional observations from a re-analysis of the deposited data

How the results depend on the processing

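Each share was recomputed under other settings and set beside the 95% exact (Clopper-Pearson) interval of the share as reported, used as a yardstick only. Of 53 recomputed values 35 stayed inside. In loci with 10 or more transcripts the shares were 78.9% for skipped exons, 90.4% for shifted sites, 26.3% for unspliced models and 71.9% for retained introns, and with 5 to 9 they were 44.4%, 62.9% and 44.0% for skipped exons, shifted sites and retained introns. Looser definitions gave 80.8% for first and 79.9% for last exons with overlap ignored, 66.0% for any internal exon inside an intron, and 82.3% for shifted sites (3.22% for 3 nt acceptors) with the other site ignored. Shifts of at least 10 nt left 59.5%. Transcripts sharing a chain came to 0.430% with gaps under 30 nt closed and 18.8% with sites within 10 nt taken as equal. In matched loci alone, a setting added after the data were seen, first exons were at 45.4%, last exons at 42.9% and skipped exons at 59.9%. Without the span limit, or without the 10 richest loci (also added), no share left its interval. No paired analysis was possible because the file has no column per library. The file holds models and no reads, so the support behind a single transcript, and whether a short shift or an unspliced model is a real RNA, was not tested.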
